A study of Mus musculus with 24 samples.

Results

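The miR-34 family is a group of small regulatory RNAs made from 3 hairpins in the mouse genome. Its members here are 5 of the rows named for it in the deposited table, which has 1907 miRNA names in all. They are mmu-miR-34a-5p, mmu-miR-34c-5p, mmu-miR-34b-3p, mmu-miR-34c-3p and mmu-miR-34b-5p. The row of mmu-miR-34a-3p, with 152 reads in all libraries together, is not among the members. The 5 members were listed by name, but with earlier results of these data known. All 5 had enough reads to be among the 558 miRNAs tested.

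A microRNA hairpin is cut by Dicer into a duplex, and one or both strands, called the 5p and 3p arms, are loaded into an Argonaute protein. The seed of the loaded arm then pairs with messenger RNAs and represses them. The miR-34 genes are direct transcriptional targets of p53, and their products act on cell cycle, survival and metabolic genes, the deacetylase Sirt1 among them. miR-34a has been reported to be higher in the adipose tissue of obese mice and people.

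Small RNAs were sequenced from subcutaneous adipose tissue of mice in 6 groups of 4 libraries each, 24 libraries in all. Mice received a high-fat diet or a control diet, and tissue was taken at day 1, week 1 and week 3. The sources used here give no strain, sex or age. Whether each library is a separate animal is not stated in the labels, so the p-values measure the spread between these libraries, which may be technical. The series' title concerns a decrease of DICER in fat during high-fat feeding. The diet comparison asks how the level of each miRNA, relative to the others, stood beside that decrease. A fall shared by all miRNAs would be removed by the scaling of libraries and could not be seen here.

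RefSeq mature sequences on build GRCm38.p6 matched 4 of the 5 members, all except miR-34c-5p, and the seed search below covers the matched sequences alone. They are shown because the seed, bases 2 to 8 from the 5′ end and printed in capitals, divides the family into groups. They also show that the low members miR-34b-3p, miR-34c-3p and miR-34b-5p differ from one another in sequence. miR-34b-5p could not be compared with miR-34c-5p, and whether reads of one were counted for the other was not tested. The first pair carries the canonical miR-34 seed, the next pair the seed of the 3p arms, and the last line is a miRNA outside the family with the canonical seed.
mmu-miR-34a-5p: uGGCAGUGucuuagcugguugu
mmu-miR-34b-5p: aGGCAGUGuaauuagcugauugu
mmu-miR-34b-3p: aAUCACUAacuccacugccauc
mmu-miR-34c-3p: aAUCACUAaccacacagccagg
mmu-miR-449a-5p: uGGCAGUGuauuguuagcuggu

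The seed GGCAGUG occurred in 4 of the 1679 RefSeq mouse mature sequences searched, a set without miR-34c-5p, and these were miR-34a-5p, miR-34b-5p, miR-449a-5p and miR-449c-5p. The seed AUCACUA occurred in 2 of the 1679, miR-34b-3p and miR-34c-3p. These arms differ at 5 of 22 positions, counted from the 5′ end of miR-34c-3p, as C11U, A12C, A16U, G21U and G22C. miR-34a-5p and miR-449a-5p differ at 7 of 22 positions. Each matched member came from 1 locus.

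The family lies at separate genomic places. Mir34a is at chr4:150068454-150068555 on the plus strand, where its hairpin overlaps an exon of the annotated gene Gm37795 on the same strand. Mir34b, at chr9:51103562-51103645, and Mir34c, at chr9:51103034-51103110, lie 451 bases apart on the minus strand, in an intron of Btg4, a gene of the opposite strand. The Mir34a and Mir34b hairpins are printed with both arms in capitals, since the arm that dominated the reads differed between them.
Mir34a: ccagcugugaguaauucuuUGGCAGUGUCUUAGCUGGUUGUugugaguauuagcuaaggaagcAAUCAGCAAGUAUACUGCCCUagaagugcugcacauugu
Mir34b: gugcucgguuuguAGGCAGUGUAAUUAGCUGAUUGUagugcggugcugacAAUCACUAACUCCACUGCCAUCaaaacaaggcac

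Library totals ran from 1992607 to 16299177 counted reads. High-fat libraries had a median of 4018906 reads and control libraries 6403227. Levels are counts per 1000000 reads (CPM) scaled with TMM factors, which correct for library composition. A floor of 3 counts came to between 0.186 and 1.48 CPM per library. Reads carry no molecular identifiers, so floors and the intervals of read shares cover counting error only. Intervals of fold changes also take in the spread between libraries. The labelled tissue was checked against its markers. The 8 adipocyte-enriched miRNAs, of which 7 were tested, summed to between 149115 and 316569 CPM. They were led by miR-148a-3p, miR-30a-5p and miR-378a-3p, with means of 170645, 25169 and 16127.5 CPM. The sum was thus mostly miR-148a-3p. Skeletal muscle miRNAs varied far more, and their 6 members summed to between 24.03 and 80413 CPM. In bulk tissue, fewer cells of a type and less RNA per cell cannot be told apart.

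miR-34a-5p and miR-34c-5p were the abundant members. miR-34a-5p averaged 213 ± 35.9 CPM (SD, n = 24), rank 145 of the 558 tested miRNAs, between miR-223-3p at 215 CPM and miR-455-3p at 210.1 CPM. miR-34c-5p averaged 177 ± 50.7 CPM (SD, n = 24), rank 159, between miR-28a-5p at 179 CPM and miR-224-5p at 176 CPM. The level of miR-34a-5p was above that of miR-34c-5p in 17 of 24 libraries, and their ranges overlapped. Together they held most family reads: 51.7% ± 7.92 was miR-34a-5p and 42.0% ± 6.90 miR-34c-5p (SD, n = 24).

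The other members were far lower. miR-34b-3p averaged 17.0 ± 5.82 CPM, between miR-21a-3p and miR-450b-5p in the order of levels. miR-34c-3p averaged 6.73 ± 1.88 CPM, between miR-323-3p and miR-3074-1-3p. miR-34b-5p averaged 2.77 ± 1.17 CPM, between miR-3964 and miR-3066-5p (SD, n = 24 for each). In 24 of 24 libraries the order was miR-34c-5p, miR-34b-3p, miR-34c-3p and miR-34b-5p, high to low. The gap below miR-34c-5p was clear of its spread, since its lowest library had 108 CPM and the highest miR-34b-3p library 30.9 CPM. The ranges of miR-34b-3p and miR-34c-3p overlapped, and so did those of miR-34c-3p and miR-34b-5p. Mature miRNAs are read whole, so these levels need no division by length, but they are levels of reads and the order of molecules was not measured.

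The dominant arm differed between the neighbouring hairpins. Pooled over all libraries, miR-34c-5p supplied 96.3% of 27649 miR-34c reads (95% interval 96.1 to 96.5, exact Clopper-Pearson). For miR-34b it was the 3p arm, with 85.9% of 2907 reads (84.6 to 87.1). Every library had the same dominant arms, with 15.7 to 45.1 miR-34c-5p reads per miR-34c-3p read and 3.29 to 17.0 miR-34b-3p reads per miR-34b-5p read. For miR-34a the 5p arm held 99.5% of reads (99.4 to 99.6), against 152 reads of miR-34a-3p in all libraries together. The intervals of these pooled shares treat each read as independent and do not cover the spread between libraries.

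**Figure D1:**
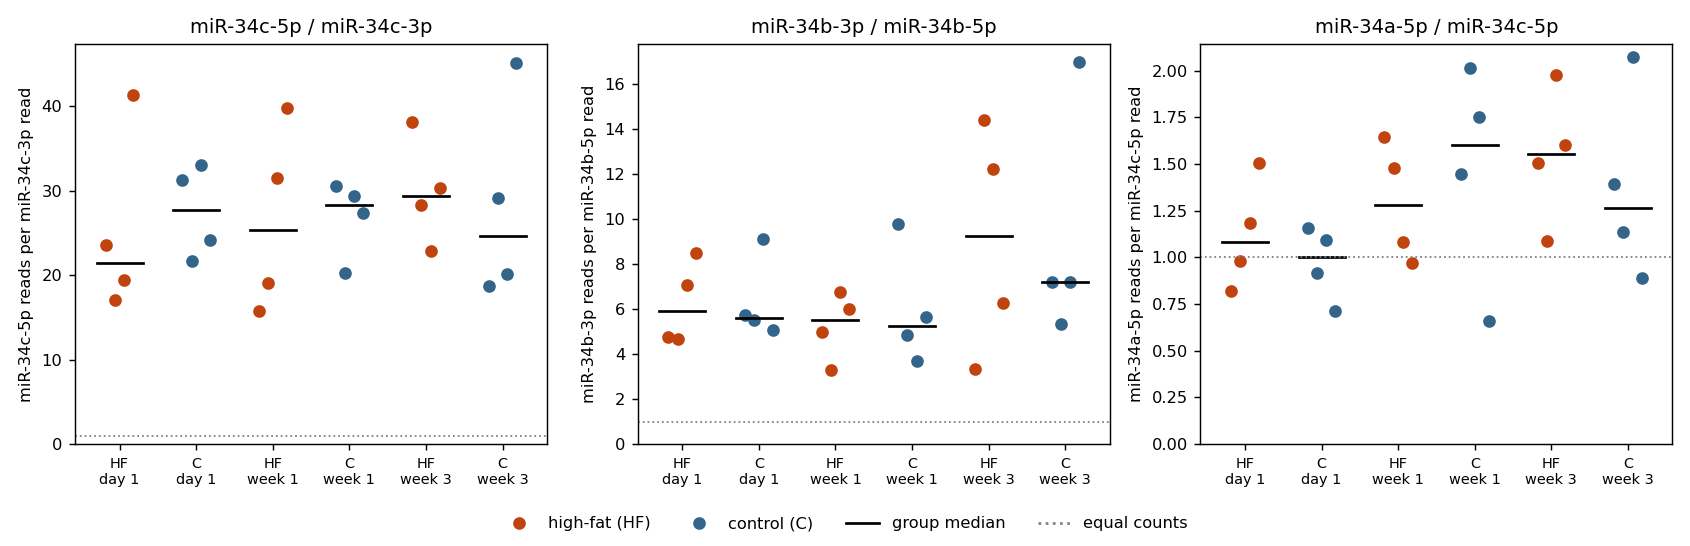
Ratio of reads between arms of one hairpin (left and middle) and between miR-34a-5p and miR-34c-5p (right) in each library, with high-fat (HF) groups left of control (C) groups at each time. Horizontal bars are group medians and the dotted line marks equal counts. All 24 libraries lie above it for both arm ratios, and 17 of 24 for miR-34a-5p over miR-34c-5p.

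No member of the family passed the test for diet at any time. The threshold was an adjusted p under 0.05 from edgeR's quasi-likelihood test, Benjamini-Hochberg adjusted over all 558 miRNAs. At day 1, week 1 and week 3, and in the mean of the 3 times, 0 of 5 members were called, where the share of all tested miRNAs called was 0% in each. At an unadjusted p under 0.05, the counts over all tested miRNAs were 17, 79, 10 and 18, and none was a member. DESeq2 called 0 miRNAs in each of these comparisons. limma-voom called 17 at week 1, again with 0 members, and 0 in the others. A joint test of diet by time called 0 of 5 members and 0% of all, with 41 miRNAs at an unadjusted p under 0.05 and 0 called by DESeq2 or limma-voom.

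miR-34a-5p, the member best known from obese fat, is described first. At day 1 it had 159, 145, 187 and 214 CPM in high-fat libraries, against 218, 168, 239.9 and 181 CPM in control libraries. At week 1 it had 238, 163, 204 and 262 CPM in high-fat libraries, against 203, 241, 271 and 196 CPM in control libraries. At week 3 it had 279.5, 204, 258 and 226 CPM in high-fat libraries, against 195, 225, 225 and 219 CPM in control libraries. The diets overlapped at every time. At week 3 the 3 highest of the 8 libraries were high-fat, but the lowest of these 3, at 226 CPM, was almost level with 2 control libraries at 225 CPM.

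At day 1, week 1 and week 3, the log2 fold changes of miR-34a-5p, high-fat over control, were -0.19 ± 0.18, -0.07 ± 0.18 and 0.16 ± 0.18 (SE; edgeR adjusted p = 0.982, 0.866 and 0.999). Averaged over the 3 times it was -0.03 ± 0.10 (SE; edgeR adjusted p = 0.993). The 95% interval of that mean ran from 0.844-fold to 1.13-fold, and the interval at week 3 from 0.869-fold to 1.44-fold. The direction differed between week 3 and the earlier times, but the joint test of that difference gave an edgeR adjusted p of 0.754.

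miR-34c-5p, the main product of the chromosome 9 hairpins, varied more. At day 1 it had 194, 148, 158 and 142 CPM in high-fat libraries, against 189, 183, 219.6 and 254 CPM in control libraries. At week 1 it had 145, 110.0, 188 and 269.5 CPM in high-fat libraries, against 139.8, 119.9, 155 and 296 CPM in control libraries. At week 3 it had 186, 188, 130.5 and 141 CPM in high-fat libraries, against 140.1, 199, 108 and 246 CPM in control libraries. At day 1 only replicate 1 of the high-fat libraries exceeded the 2 lowest control libraries. At week 1 each diet had 1 library far above its others.

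The log2 fold changes of miR-34c-5p at the same times were -0.40 ± 0.29, 0.00 ± 0.29 and -0.10 ± 0.29, with a mean of -0.17 ± 0.17 (SE; edgeR adjusted p = 0.982, 0.997, 0.999 and 0.993). The interval of the mean ran from 0.701-fold to 1.13-fold. The week 1 value turned on single libraries. Without control replicate 4, the library with 296 CPM, it was 0.40, and without high-fat replicate 4 it was -0.26. That control library was also among the 3 with the highest skeletal muscle markers, with a mean log2 CPM of 8.96 over the muscle list. The part of muscle RNA in the value was not tested.

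miR-34b-3p, the dominant arm of Mir34b, came nearest to the threshold among the diet values. At day 1 it had 20.8, 13.9, 18.2 and 8.38 CPM in high-fat libraries, against 17.0, 22.98, 24.3 and 30.2 CPM in control libraries. At week 1 it had 16.5, 9.81, 16.6 and 20.3 CPM in high-fat libraries, against 10.2, 12.7, 11.4 and 19.7 CPM in control libraries. At week 3 it had 13.9, 19.1, 13.7 and 14.6 CPM in high-fat libraries, against 15.9, 15.3, 12.6 and 30.9 CPM in control libraries. The diets overlapped at each time. On day 1 its log2 fold change was -0.60 ± 0.30 (SE; unadjusted p = 0.0615, edgeR adjusted p = 0.982). The later values were 0.21 ± 0.31 and -0.28 ± 0.30 (SE; edgeR adjusted p = 0.755 and 0.999). Its mean over the times was -0.22 ± 0.18, with an interval from 0.666-fold to 1.10-fold.

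The low arms are set by few reads. miR-34c-3p had 7 to 175 counts per library and averaged 7.13 ± 2.46, 6.93 ± 1.57 and 5.46 ± 0.906 CPM in high-fat libraries at day 1, week 1 and week 3, against 7.92 ± 2.03, 6.66 ± 2.85 and 6.29 ± 1.04 CPM in control libraries (SD, n = 4 each). Its log2 fold changes were -0.11 ± 0.29, 0.03 ± 0.29 and -0.19 ± 0.29 (SE). miR-34b-5p had 2 to 56 counts per library and averaged 2.73 ± 1.40, 3.03 ± 0.425 and 2.23 ± 1.38 CPM in high-fat libraries, against 3.94 ± 1.496, 2.55 ± 1.07 and 2.16 ± 0.51 CPM in control libraries (SD, n = 4 each). Its log2 fold changes were -0.43 ± 0.41, 0.19 ± 0.42 and -0.02 ± 0.43 (SE). The day 1 interval of miR-34b-5p ran from 0.413-fold to 1.34-fold.

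**Figure D2:**
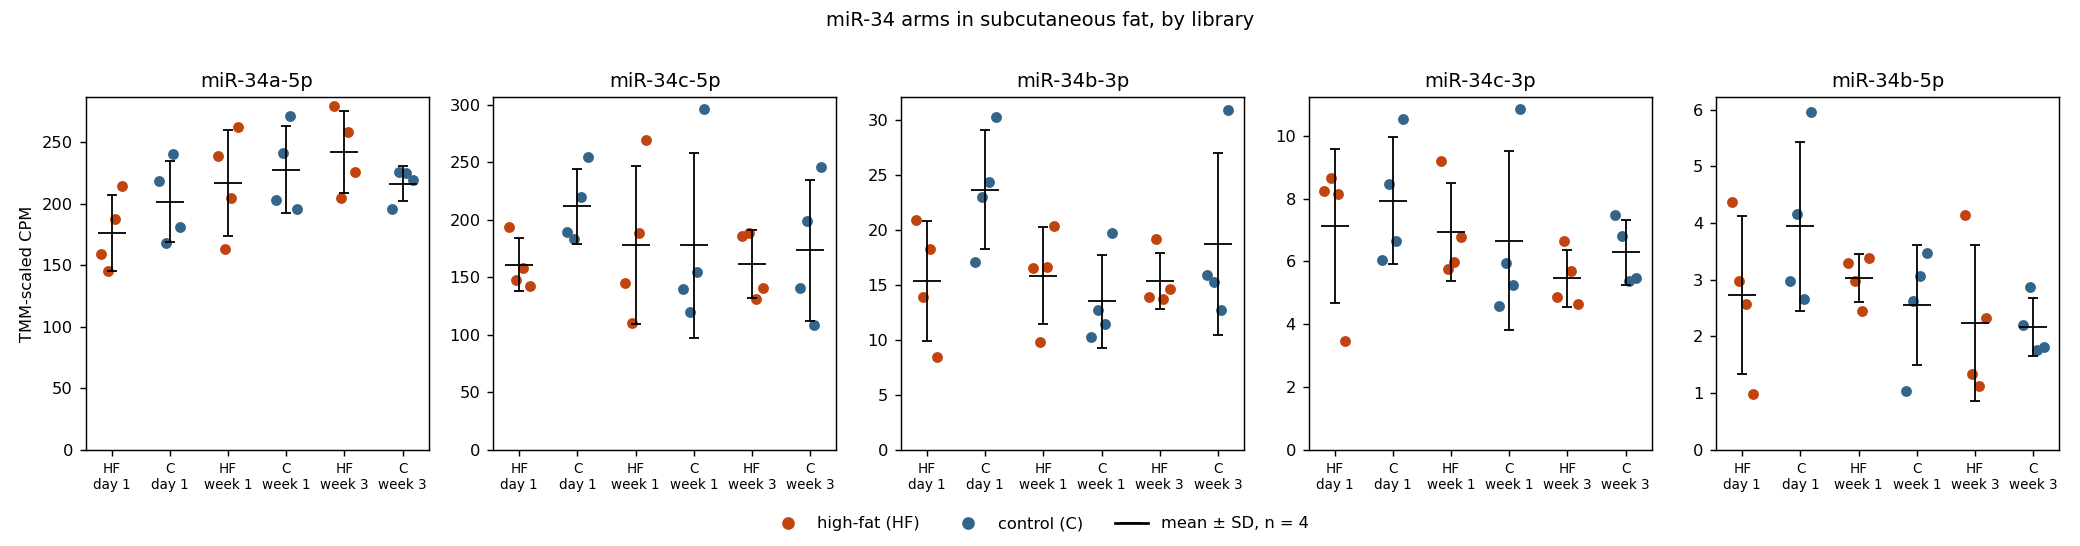
TMM-scaled CPM of each member in all 24 libraries, with high-fat (HF) groups left of control (C) groups at each time. Points are libraries, bars are the mean and SD of 4 libraries, and each panel has its own axis from 0. High-fat and control points overlap at every time in every panel.

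In the edgeR fit all 5 members had a value below 0 at day 1. Their median log2 fold change was -0.40, where the median of all 558 tested miRNAs was -0.01 and 48.4% had values above 0. At week 1 the members' median was 0.03 and that of all tested -0.02. At week 3 the medians were -0.10 for the members and -0.05 for all tested. That sign did not hold under every alternative: miR-34c-3p at day 1 was 0.03 with limma-voom and with marker covariates, and reached 0.11 with 1 library left out. Over all alternatives at day 1, miR-34a-5p ran from -0.27 to -0.06 and miR-34b-5p from -0.74 to -0.08. The members share libraries and the chromosome 9 arms share a locus, so their common sign at day 1 is not a set of independent observations. Summed over the 5 members, the family had 362 ± 30.2 CPM in high-fat libraries at day 1 and 449 ± 48.8 CPM in control libraries (SD, n = 4 each).

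Markers of other cell types also had values apart from 0 in the diet comparisons. Of all 558 tested miRNAs, 48.4% had values above 0 at day 1, 48.6% at week 1 and 41.9% at week 3. At day 1, erythrocyte miRNAs were below 0 in 4 of 4 (median log2 fold change -0.57), leukocyte miRNAs above 0 in 6 of 7 (0.32) and epithelial miRNAs below 0 in 7 of 10 (-0.25). At day 1 the erythrocyte list summed to between 1329 and 3027 CPM in high-fat libraries and between 1948 and 3474 CPM in control libraries. At week 3, epithelial miRNAs were below 0 in 10 of 10 (-0.32) and erythrocyte miRNAs in 4 of 4 (-0.33). The erythrocyte direction was the opposite at week 1, with all 4 miRNAs above 0 (median 0.29). All 5 tested skeletal muscle miRNAs had week 1 values above 0 (median 0.66), as did their means over the 3 times (0.64). Muscle values were mixed at day 1 and week 3, each with 3 above 0 and 2 below (medians 0.52 and 0.80). At week 1, leukocyte miRNAs, led by miR-142a-5p, miR-142a-3p and miR-146a-5p, were below 0 in 6 of 7, with a median log2 fold change of -1.49. The leukocyte list then summed to between 5885 and 21672 CPM in high-fat libraries and between 11683 and 50216 CPM in control libraries. Epithelial miRNAs, led by miR-200a-3p, miR-200b-3p and miR-203-3p, were above 0 in 10 of 10, with a median of 0.49. The epithelial list then summed to between 10126 and 43369 CPM in high-fat libraries and between 14425 and 18540 CPM in control libraries. No marker passed the test for diet at any time, no marker of these lists was at 0 in every library, and the part of these cell types in the members' values was not tested.

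Between times, no member passed the test either, while other miRNAs did. Week 3 over day 1, averaged over both diets, called 40 of 558 miRNAs, 7.17%, with 19 higher and 21 lower, and 0 of the 5 members. DESeq2 called 71 and limma-voom 91 miRNAs in that comparison, with 0 members each. Week 1 over day 1 called 5 miRNAs, 0.896%, with 0 members, while DESeq2 called 37 and limma-voom 33. Within diets, week 3 over day 1 called 0 miRNAs, 0%, under the high-fat diet, where 88 had an unadjusted p under 0.05, DESeq2 called 11 and limma-voom 14. Under the control diet it called 2 miRNAs, 0.358%, and 0 members in either diet.

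miR-34a-5p was the one member with values above 0 in all 4 of these comparisons. Under the high-fat diet it averaged 176 ± 30.9, 217 ± 43.1 and 242 ± 33.5 CPM at day 1, week 1 and week 3, and under the control diet 202 ± 33.3, 228 ± 35.3 and 216 ± 14.1 CPM (SD, n = 4 each). In 3 of 4 high-fat libraries at week 3 the level was above that of every high-fat library at day 1. The log2 fold change of week 3 over day 1 was 0.46 ± 0.18 under the high-fat diet (SE; unadjusted p = 0.017, edgeR adjusted p = 0.235) and 0.10 ± 0.18 under the control diet (SE; edgeR adjusted p = 0.831). Averaged over the diets it was 0.28 ± 0.13 (SE; unadjusted p = 0.0364, edgeR adjusted p = 0.151). With both diets averaged, 156 of the 558 tested miRNAs, 28%, had an unadjusted edgeR p under 0.05, and 2 were members. These comparisons share the day 1 libraries. The joint test of diet by time, given above, did not separate the diets.

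The chromosome 9 arms had values at or below 0 between times, apart from 0.00 ± 0.29 for miR-34c-5p under the high-fat diet. miR-34b-5p had the largest, with a log2 fold change of -0.64 ± 0.30 for week 3 over day 1 in both diets (SE; unadjusted p = 0.0426, edgeR adjusted p = 0.164). Under the control diet alone it was -0.85 ± 0.40 (SE; unadjusted p = 0.0482, edgeR adjusted p = 0.33), at 2.16 CPM in week 3 and 3.94 CPM in day 1 libraries. There 83 miRNAs, 14.9% of all tested, had an unadjusted edgeR p under 0.05. Skeletal muscle miRNAs, led by miR-1a-3p, miR-206-3p and miR-133b-3p, had values above 0 for 5 of 5 tested at both later times. Their median log2 fold changes were 3.08 at week 1 and 2.34 at week 3 over day 1. Of all tested miRNAs, 57% and 53.2% had values above 0 in these comparisons. None of the muscle miRNAs passed the test, and their part in the members' values was not tested.

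**Figure D3:**
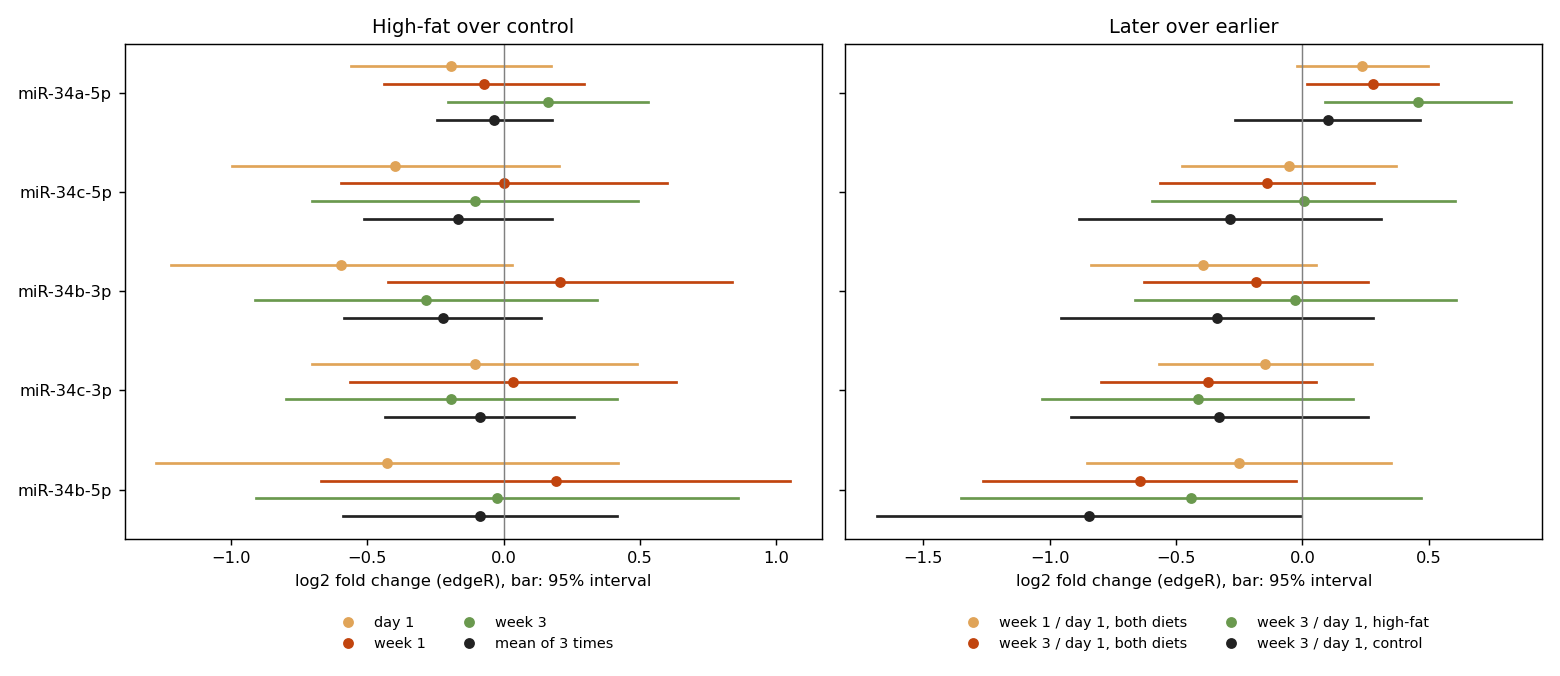
Log2 fold change of each member with its 95% interval from edgeR, for high-fat over control (left) and later over earlier times (right). No value passed an adjusted p of 0.05. On the right, miR-34a-5p lies above 0, from 0.10 to 0.46, and miR-34b-5p below 0, down to -0.85.

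Of the 6 pairs of chromosome 9 arms, 3 had correlated levels across libraries after correction, and miR-34a-5p with miR-34c-5p did not. Between miR-34c-5p and miR-34b-3p, Pearson's r of log2 CPM was 0.76 over 24 libraries (permutation p = 4e-05, adjusted 0.001 over 25 relations), and Spearman's rho was 0.80 (permutation p = 2e-05, adjusted 0.0005). Without the 2 libraries farthest from the median of miR-34c-5p, r was 0.81 (permutation p = 1e-05, the smallest the resamples can give). After removal of group means r was 0.77. Within the diets it was 0.71 in high-fat libraries and 0.78 in control libraries (n = 12 each). An r of this size was not particular to the pair. Outside the family, miR-132-3p had r = 0.77 with miR-34c-5p, and miR-455-5p had 0.75 with miR-34c-5p and 0.72 with miR-34b-3p.

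The 3p arm of miR-34c also went with both arms of miR-34b. With miR-34b-5p, r was 0.63 and rho 0.58, and with miR-34b-3p r was 0.62 and rho 0.62 (permutation, adjusted p = 0.00975 for each r, and 0.0269 and 0.021 for the rhos, n = 24). Without the 2 farthest libraries these r were 0.56 and 0.54. The remaining 3 pairs, among them both pairs of arms from one hairpin, had r of 0.44 to 0.46 and failed the correction (permutation, adjusted p = 0.111 to 0.121).

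miR-34a-5p had r = 0.03 and rho = -0.03 with miR-34c-5p (permutation p = 0.907 and 0.906, n = 24), and r = 0.01 without the 2 farthest libraries. With miR-34c-3p it had r = -0.47 and rho = -0.48 (permutation p = 0.0218 and 0.0184, adjusted 0.111 and 0.0867), and r = -0.38 without the 2 farthest. That relation failed the correction. Of the 15 relations with the epithelial, leukocyte and skeletal muscle marker means, none passed, and the lowest adjusted p for r was 0.195, for leukocyte markers and miR-34c-3p. All values in a correlation come from the same library and scaling.

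**Figure D4:**
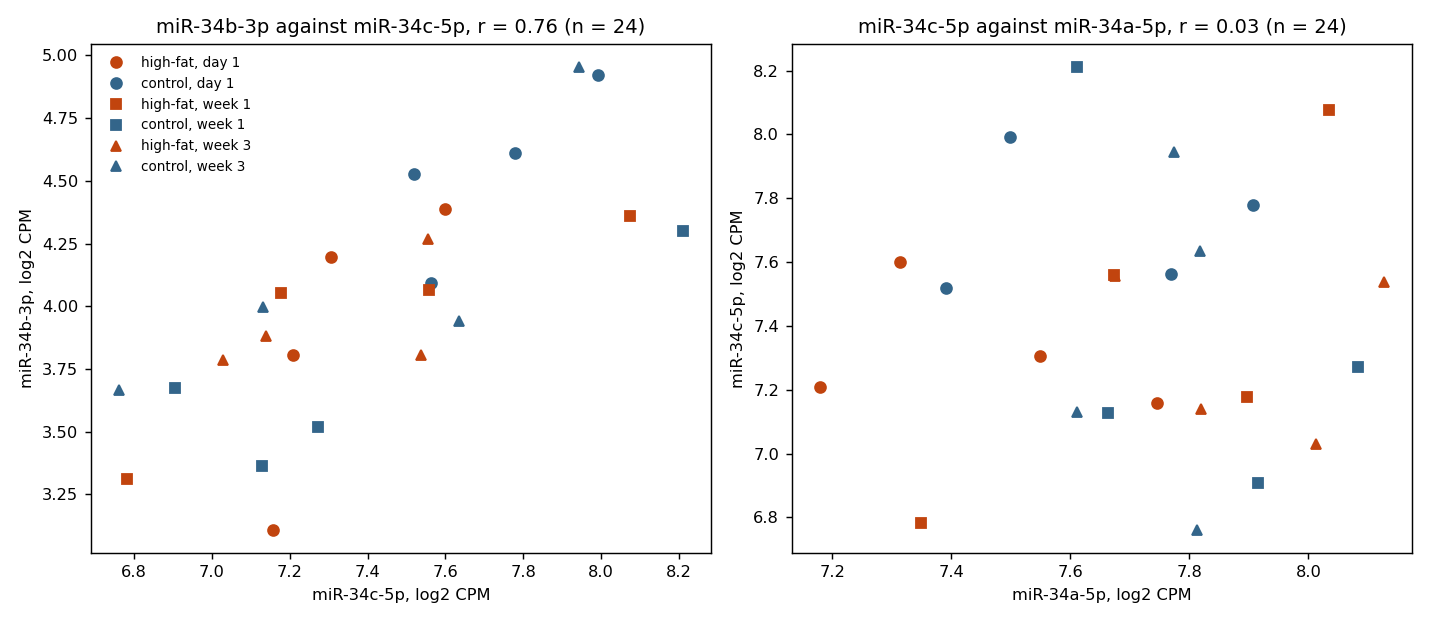
Log2 CPM of miR-34b-3p against miR-34c-5p (left) and of miR-34c-5p against miR-34a-5p (right) in 24 libraries, coloured by diet and shaped by time. The left panel has r = 0.76 and the right r = 0.03.

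miR-34a-5p was among the steadier miRNAs. Its pooled SD within groups was 0.23 on the log2 scale, where the median over all tested miRNAs was 0.44, and 7.89% of the 558 had a smaller one. Among the 100 miRNAs nearest to it in level, 13% had a smaller SD. miR-34c-5p had an SD of 0.42, and 62.0% of its 100 neighbours in level had a smaller one. miR-34b-3p, miR-34c-3p and miR-34b-5p had SDs of 0.44, 0.40 and 0.61.

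The miRNAs whose levels were most like each abundant member had no name in common. For miR-34a-5p the 5 highest r over 24 libraries were those of miR-744-3p at 0.63, miR-15a-3p at 0.62, miR-330-5p and miR-704 at 0.61 and miR-106b-3p at 0.60. For miR-34c-5p they were miR-132-3p at 0.77, miR-455-5p at 0.75, miR-379-5p at 0.72 and miR-370-3p and miR-380-3p at 0.71. These are the highest of all tested miRNAs outside the family and are given as a description.

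The family can be set beside related miRNAs. Of the listed miR-449 miRNAs, miR-449a-5p, which shares the canonical seed, averaged 3.36 ± 1.05 CPM (SD, n = 24) and was not called in any comparison, miR-449c-5p was too low to test and miR-449b had no reads. Its mean log2 fold change for diet was -0.31 ± 0.19 (SE; edgeR adjusted p = 0.993). Of 12 tested miRNAs linked to p53 by transcription or processing, led by miR-143-3p, miR-22-3p and miR-145a-5p, 0 were called for diet. Their median log2 fold change over the 3 times was -0.08, where that of all tested was -0.04.

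Of the same list, 1 of 12 tested, miR-149-5p, beside 7.17% of all tested miRNAs, was higher at week 3 than at day 1 over both diets, with a log2 fold change of 1.34 ± 0.40 (SE; edgeR adjusted p = 0.0473). That call was held in 4 of the 24 fits that left out 1 library and in 3 of 10 other alternatives, in which the value ran from 0.22 to 1.45. Of 12 miRNAs reported to change in obese fat, led by miR-143-3p, miR-21a-5p and miR-29a-3p, 0 were called in any of the 9 comparisons, in which between 0% and 7.17% of all tested miRNAs were called. Their median log2 fold change for diet over the 3 times was -0.08, with 4 values above 0 and 8 below. Of all tested miRNAs, 40.3% had values above 0 there.

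Among the markers of other cell types, 2 passed the test, both for week 3 over day 1 in both diets. The share of all tested miRNAs called in that comparison was 7.17%. The markers tested were 1 endothelial, 4 erythrocyte, 10 epithelial, 7 leukocyte, 5 skeletal muscle and 4 neuronal miRNAs. The endothelial miR-126a-3p had a log2 fold change of 0.36 ± 0.11 and the erythrocyte miR-144-3p one of 0.78 ± 0.24 (SE; edgeR adjusted p = 0.0473 and 0.0478). These calls were held in 3 and 4 of the 24 fits that left out 1 library. Of 4 tested neuronal miRNAs, led by miR-128-3p, miR-9-3p and miR-129-5p, and of the erythrocyte miRNAs miR-451a and miR-486a-5p, none was called in any comparison. The marker miR-126a-5p was listed at 0 in every library.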

How the data were processed

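Total RNA, 1 µg per library, was made into small RNA libraries with a NEBNext kit, per the labels' protocols. The authors deposited raw counts per mature miRNA name. FastQC, Trim Galore, Bowtie2, featureCounts and build mm10 are named in the submitters' processing notes. Their versions, and how reads with several alignments were treated, are not stated there.

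Counts were tested with edgeR 4.0.16 (quasi-likelihood, robust) in R 4.3.3, with TMM factors, 1 mean for each of the 6 groups, and filterByExpr (minimum count 10), which kept 558 miRNAs. The 1349 names not tested held 0.0179% of the counts, and 440 names were at 0 in every library. DESeq2 1.42.0 and limma 3.58.1 were alternatives. Log2 CPM for correlations used a pseudocount of 0.5 counts, and permutation tests were two-sided with 100000 resamples (scipy 1.17.1 for intervals). The fits were tested on simulated data. The biological coefficient of variation was 0.359. No libraries of the same group were duplicates, since their counts differed by a chi-square of at least 155 per degree of freedom. Libraries of different groups were not compared in this way.

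Members, lists and tests were chosen with earlier results of these data known. Named miRNAs are the members, each list's 3 most abundant tested miRNAs, list members past the threshold, the 5 most like miR-34a-5p and miR-34c-5p, and the neighbours in level. Of the 13 miRNAs in the p53 list, miR-605-5p is not analysed here. Replicate numbers did not pair libraries across groups. The diet comparisons, the joint test and the comparisons of times, 9 in all, were rerun with other scalings, filters, tools, marker covariates, a replicate block and each library left out.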

Additional observations from a re-analysis of the deposited data

Results flagged for a closer look

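In 2 of 30 groups of 4 libraries checked, 1 library stood apart from the other three by Dixon's criterion, and chance gives about 1 in 20. miR-34c-3p had 3.45 CPM in high-fat day 1 replicate 4, where the other three libraries had 8.15, 8.23 and 8.66 CPM. That library was the shallowest, with 1992607 reads and 7 counts of this arm. miR-34b-3p had 19.1 CPM in high-fat week 3 replicate 2, where the other three had 13.7, 13.9 and 14.6 CPM.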

How the results depend on the processing

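The number of members called was 0 in all 9 comparisons under every alternative that was run. The relation of miR-34b-3p with miR-34c-5p had r from 0.73 to 0.79 under other scalings, pseudocount, group means removed and each library left out, 0.81 without the 2 libraries farthest on miR-34c-5p, and 0.71 in high-fat and 0.78 in control libraries. Over 40 member values, the lowest adjusted p was 0.0592 in other settings and 0.0634 with 1 library left out. Directions of small values did turn, and the cause was not tested. With RLE size factors, miR-34b-5p at week 3 was 0.037, miR-34a-5p in the mean of times 0.0114 and miR-34c-5p in week 3 over day 1 (high-fat) -0.0169; with library totals the last was -0.0898, and with TMM without the 5 most abundant miRNAs the 3 were 0.0498, 0.00159 and -0.0332. With DESeq2 they were 0.0289, 0.00969 and -0.0175. With no filter, miR-34c-5p at week 1 was -0.0519 and miR-34b-5p at week 3 0.0208. With a mean CPM of at least 10, where miR-34b-5p and miR-34c-3p are not tested, the mean of miR-34a-5p was 0.031. limma-voom gave miR-34c-3p 0.0299 at day 1 and 0.0581 in the mean, and miR-34c-5p -0.0548 in week 3 over day 1 (high-fat). Marker means as covariates gave miR-34c-3p 0.0307 at day 1, -0.256, -0.339 and -0.153 for miR-34c-5p, miR-34c-3p and miR-34b-3p at week 1, and -0.0207 for miR-34c-5p in week 3 over day 1 (high-fat). Without the 3 libraries highest in muscle markers, the means of miR-34c-5p and miR-34c-3p were 0.0334 and 0.0836. With 1 library left out, the high-fat over control values ran as follows. miR-34a-5p ran from -0.151 to 0.0733 at week 1 and from -0.0393 to 0.0242 in the mean. miR-34c-5p ran from -0.259 to 0.402 at week 1 and from -0.268 to 0.169 at week 3. miR-34c-3p ran from -0.188 to 0.114 at day 1, from -0.0842 to 0.44 at week 1 and from -0.126 to 0.0527 in the mean. miR-34b-5p ran from -0.50 to 0.348 at week 3 and from -0.23 to 0.0576 in the mean, and miR-34b-3p from -0.434 to 0.118 at week 3. For week 3 over day 1, miR-34c-5p ran from -0.117 to 0.0726 and miR-34b-3p from -0.26 to 0.119 under the high-fat diet, and miR-34a-5p from -0.0163 to 0.215 under the control diet. Same-numbered libraries did not deviate together (60 pairs, r from -0.617 to 0.547, median -0.0368). With a replicate block, 0 members were called, no member value changed direction, r was 0.74, and miRNAs called numbered 10 rather than 5 for week 1 over day 1, 33 rather than 40 for week 3 over day 1 and 0 rather than 2 in its control diet. For week 3 over day 1, marker covariates called 81 miRNAs and no filter 19. For diet at week 1, 31 miRNAs but no member were called without the 3 muscle-highest libraries and 22 without control replicate 4. The 3 calls among list members were added after seeing the data.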
